A study of Mus musculus with 20 samples.

Results

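The nuclear genes of the mitochondrial respiratory chain were taken by symbol, as protein-coding mouse genes starting with Nduf, Uqcr or Atp5 or with Cox4 to Cox8, together with Sdha, Sdhb, Sdhc, Sdhd, Cyc1 and Cycs. They numbered 98 of 21900 protein-coding genes. Each bound region was counted at the protein-coding gene nearest to its centre, at a distance of 0 inside the gene and of at most 100 kb outside it. In this way 97 of 22081 distinct regions lay at 70 of the 98 genes, and 28 genes had none. Over the whole series 21850 regions could be placed at a gene.

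The series mapped the binding of Bcl11b, a zinc-finger protein that T cell development depends on, and of Foxp3, the transcription factor that defines regulatory T (Treg) cells, by ChIP-seq in 20 libraries of 9 groups from C57BL/6 mice, 12 of them immunoprecipitated and 8 input. Cells were sorted from lymph nodes and spleen and then fixed. Wild-type (WT) Treg cells of the genotype Foxp3-IRES-YFP-Cre were sorted as CD4+YFP+ and gave 3 Bcl11b and 2 Foxp3 libraries. Cells labelled Tn, a name the labels do not spell out, gave 3 Bcl11b libraries, and the labels give them the same sort and genotype as the WT Treg cells. KIKO cells, which are Treg cells without Foxp3 from Foxp3-GFPKO mice sorted as CD4+GFP+, gave 2 Bcl11b libraries. Bcl11b-KO Treg cells came from Bcl11b f/f Foxp3-IRES-YFP-Cre mice, in which Cre is made from the Foxp3 locus, and gave 2 Foxp3 libraries from sorted CD4+YFP+ cells. WT Treg and Tn cells thus carried the Cre allele as well. Age, sex and the number of mice behind a library are not in the labels.

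The deposited lists give positions in mm10 and no signal. For each of 4 comparisons they divide the regions into those specific to the first set, those common to both and those specific to the second set. The comparisons set WT Treg Bcl11b against Tn Bcl11b, against KIKO Bcl11b and against WT Treg Foxp3, and WT Treg Foxp3 against Bcl11b-KO Treg Foxp3. The 3 comparisons of Bcl11b share the WT Treg Bcl11b set, and the last 2 share the WT Foxp3 set, so their classes are given side by side and not as repeated evidence. The lists hold 1 entry per group, so there is no spread between replicates and no test over libraries. Shares are given with Wilson 95% intervals, which cover counting error only and treat regions at 1 gene as separate draws. A list also cannot tell fewer bound cells from weaker binding in each cell. In what follows, WT-specific means listed only for WT Treg cells, which need not be a complete absence of binding in the other cells.

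The respiratory chain passes electrons from NADH (complex I) and succinate (complex II) through complex III and cytochrome c to oxygen at complex IV, and the proton gradient that this builds drives ATP synthase, complex V. Nearly all of its subunits are encoded in the nucleus and are made in every cell type that respires. Their promoters are known for sites of NRF1, GABPA, YY1 and ERRA, factors that tie many of these genes to mitochondrial biogenesis. Treg cells are known to rely more on oxidative phosphorylation than effector T cells do, and Foxp3 has been linked to this metabolic state.

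Regions at these genes lay near gene ends more often than regions in general. Gene ends, of any protein-coding gene, were at most 1 kb from the centre for 60 of 97 regions (61.9%, interval 51.9 to 70.9%), against 38.3% of all placed regions. RefSeq promoter windows, which run from 250 bases before to 50 bases after a start site, were given for 79 of the 98 genes. A region overlapped such a window by at least 1 bp at 52 of the 79 genes (65.8%, interval 54.9 to 75.3%), against 31.8% of the 17492 protein-coding genes with a window. The upstream bases of 10 bound promoters are shown here because most of the later results concern them. They are the 200 bases before the start site, outside any annotated gene, read 5′ to 3′ on the strand of the gene from RefSeq on GRCm38.p6, whose primary coordinates are those of mm10. Capitals mark letters of the motifs named after the sequences, and a run without capitals holds none of them.

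The first 3 promoters lay under a region that was common in all 4 comparisons. They belong to Ndufa4 (chr6:11907451-11907650, minus strand), a subunit now assigned to complex IV, to Ndufab1 (chr7:122101849-122102048, minus strand), the mitochondrial acyl carrier protein that is also a complex I subunit, and to Ndufb7 (chr8:83566558-83566757, plus strand), an accessory subunit of complex I. The region at Ndufa4 was itself counted at its neighbour Phf14.
Ndufa4: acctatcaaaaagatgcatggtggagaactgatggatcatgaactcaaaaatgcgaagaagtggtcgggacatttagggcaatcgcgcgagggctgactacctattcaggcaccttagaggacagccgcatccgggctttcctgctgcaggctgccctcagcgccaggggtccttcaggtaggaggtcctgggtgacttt
Ndufab1: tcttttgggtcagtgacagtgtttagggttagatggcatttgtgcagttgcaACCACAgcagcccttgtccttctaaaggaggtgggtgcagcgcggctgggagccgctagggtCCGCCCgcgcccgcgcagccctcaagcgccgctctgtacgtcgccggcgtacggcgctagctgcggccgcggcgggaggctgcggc
Ndufb7: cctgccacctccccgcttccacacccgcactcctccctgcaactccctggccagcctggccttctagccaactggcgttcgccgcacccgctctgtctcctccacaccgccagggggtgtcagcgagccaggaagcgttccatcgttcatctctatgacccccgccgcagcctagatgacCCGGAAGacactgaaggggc

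The next 5 lay under regions where Bcl11b was common to WT Treg, Tn and KIKO cells and shared with Foxp3, while Foxp3 was WT-specific against Bcl11b-KO cells. They belong to Atp5g2 (chr15:102671048-102671247, minus strand), which encodes the c subunit of the ATP synthase rotor, and to the complex I accessory subunits Ndufa12 (chr10:94198835-94199034, plus strand), Ndufa5 (chr6:24527691-24527890, minus strand) and Ndufa9 (chr6:126849145-126849344, minus strand). The last is Uqcrfs1 (chr13:30545317-30545516, minus strand), the Rieske iron-sulfur protein of complex III. The region covered all 200 bases at Atp5g2, 180 at Ndufa12, 151 at Uqcrfs1, 126 at Ndufa9 and 82 at Ndufa5.
Atp5g2: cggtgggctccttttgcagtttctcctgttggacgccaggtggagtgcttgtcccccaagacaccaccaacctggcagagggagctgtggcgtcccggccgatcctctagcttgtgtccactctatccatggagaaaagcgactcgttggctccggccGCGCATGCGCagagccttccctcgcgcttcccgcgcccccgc
Ndufa12: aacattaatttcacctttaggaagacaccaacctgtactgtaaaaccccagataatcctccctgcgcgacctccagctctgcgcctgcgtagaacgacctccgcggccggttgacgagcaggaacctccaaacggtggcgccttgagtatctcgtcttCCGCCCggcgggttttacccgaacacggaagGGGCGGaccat
Ndufa5: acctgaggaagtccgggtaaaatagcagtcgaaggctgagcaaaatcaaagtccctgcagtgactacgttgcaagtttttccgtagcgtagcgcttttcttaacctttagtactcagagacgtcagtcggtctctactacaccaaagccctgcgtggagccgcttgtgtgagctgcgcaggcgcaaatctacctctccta
Ndufa9: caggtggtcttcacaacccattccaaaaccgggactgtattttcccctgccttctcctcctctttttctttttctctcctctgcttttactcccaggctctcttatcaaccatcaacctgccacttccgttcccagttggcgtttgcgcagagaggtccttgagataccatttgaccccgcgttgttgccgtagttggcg
Uqcrfs1: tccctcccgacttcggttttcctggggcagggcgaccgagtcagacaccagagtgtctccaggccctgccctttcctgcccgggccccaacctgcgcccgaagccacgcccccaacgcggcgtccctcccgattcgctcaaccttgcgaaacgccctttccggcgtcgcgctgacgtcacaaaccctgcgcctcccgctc

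A further pair is shown for its NRF1 letters. Sdhb (chr4:140961071-140961270, plus strand) encodes the iron-sulfur subunit of complex II, and Cox6a1 (chr5:115348959-115349158, minus strand) is a complex IV subunit.
Sdhb: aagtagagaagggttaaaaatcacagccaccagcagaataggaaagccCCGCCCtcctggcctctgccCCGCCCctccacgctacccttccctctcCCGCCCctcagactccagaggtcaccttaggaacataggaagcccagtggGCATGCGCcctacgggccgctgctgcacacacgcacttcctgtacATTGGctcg
Cox6a1: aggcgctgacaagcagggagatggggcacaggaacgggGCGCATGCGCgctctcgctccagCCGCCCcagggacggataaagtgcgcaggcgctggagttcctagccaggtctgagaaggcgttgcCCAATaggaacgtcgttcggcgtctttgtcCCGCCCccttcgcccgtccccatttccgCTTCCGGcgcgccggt

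The motifs were searched as fixed letters on both strands. They were GCGCATGC for NRF1, CCGGAAG for GABPA and other ETS factors, AAGATGGCG for YY1, CCAAT for the CCAAT box, GGGCGG for Sp and Klf factors, TGTGGT for Runx, TGTTTAC for forkhead factors and TCAAGGTCA for ERRA. The ETS and YY1 letters can overlap in the bases AAG. The 79 genes had 84 windows. Those of Atp5c1, Ndufa5 and Ndufa7 overlapped within the gene, and the intervals treat them as separate draws, also among the bound windows. The NRF1 letters stood in 13 of 84 windows of respiratory chain genes (15.5%, interval 9.27 to 24.7%), against 3.52% of all 21263 windows. The YY1 letters stood in 8 (9.52%, interval 4.91 to 17.7%) against 1.83%, and the ETS letters in 19 (22.6%, interval 15.0 to 32.7%) against 11.6%. Only 2 windows held the ERRA letters, those of Atp5g3 and Sdhd (2.38%, interval 0.655 to 8.27%, against 0.334%). The letters of forkhead factors, the family of Foxp3, stood in 2.38% of member windows and 3.01% of all, and the Runx letters in 11.9% and 15.0%. CCAAT stood in 42.9% and 38.2%, and GGGCGG in 44.0% and 46.2%.

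Set against bound promoters alone, part of this contrast narrowed. Of the 56 member windows that a region overlapped, 25% held the ETS letters, close to 26.4% of all 6219 overlapped windows. The NRF1 letters stood in 14.3% (interval 7.42 to 25.7%) against 5.92%, at Atp5g2, Atp5k, Cox6a1, Cycs, Ndufa6, Ndufaf4, Ndufaf5 and Sdhb. The YY1 letters stood in 10.7% (interval 5.0 to 21.5%) against 3.88%, at Atp5j, Atp5j2, Ndufa9, Ndufs4, Ndufs6 and Ndufs7. GGGCGG was in 46.4% (interval 34.0 to 59.3%) of the bound member windows and in 68.1% of all bound windows. A match of letters is a description of the window and not a bound site.

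**Figure D1:**
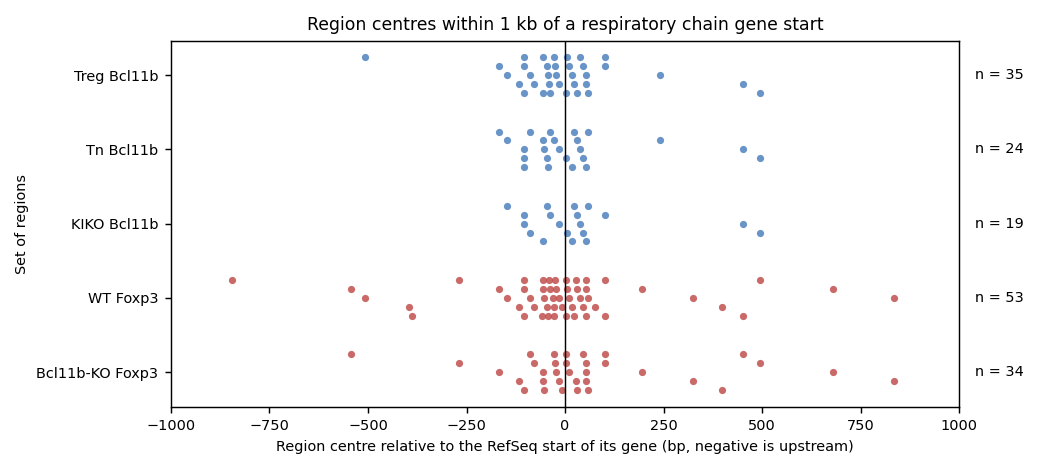
Distance in bp from the RefSeq start of the gene to the centre of each region (x axis, negative is upstream), for the 54 regions within 1 kb of a start, in a row for each of the 5 sets, with points offset vertically for legibility. A region in several sets is drawn in each; the centres gather around the start in every set, and the WT Foxp3 row holds 53 of the 54.

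Start sites were known for 79 of the 97 regions. Of these, 54 had their centre within 1 kb of the start and 42 within 250 bp of it. The median position of the 54 was -19 bp, and 29 of them were centred upstream. As the plot of distances from the start shows, the centres gathered around the start in all 5 sets, which have many regions in common. Of the 54, 35 were in the WT Treg Bcl11b set, 24 in the Tn set, 19 in the KIKO set, 53 in the WT Foxp3 set and 34 in the Bcl11b-KO Foxp3 set. The exception to WT Foxp3 was the region at Ndufaf5, an assembly factor that hydroxylates the complex I subunit Ndufs7, which carried Bcl11b alone. The start of Ndufaf5 was not free of Foxp3, however. A separate region (chr2:140170451-140170670), counted at the neighbour Esf1, overlapped its promoter window and was listed for Foxp3 in WT Treg cells.

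Respiratory chain genes carried a region more often than genes in general. At least 1 region lay at 71.4% of the 98 genes (interval 61.8 to 79.4%), against 50.3% of all protein-coding genes. The median length was 7.15 kb for these genes and 17.1 kb for all protein-coding genes, and the part of length in these counts was not tested. Within the group the 70 genes with a region had a median length of 7.82 kb and the 28 without one of 4.03 kb. In WT Treg cells 62.2% of the 98 had a Foxp3 region (41.7% of all genes) and 51.0% a Bcl11b region (28.8% of all genes). Bcl11b regions lay at 36.7% in Tn cells (20% of all genes) and at 26.5% in KIKO cells (9.33% of all genes), and Foxp3 regions at 41.8% in Bcl11b-KO Treg cells (35.5% of all genes).

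Every complex was represented. Complex I subunits had a region at 25 of 39 genes, complex II at 4 of 4, complex III at 6 of 9, complex IV at 15 of 20 and complex V at 13 of 17. Assembly factors named Ndufaf, which build complex I without remaining in it, had one at 6 of 8, and Cycs, which encodes cytochrome c, had 2 regions. All 25 complex I, all 4 complex II and all 13 complex V genes with a region had one for Foxp3 in WT Treg cells. So did 61 of the 70 respiratory chain genes with a region, and 9129 of 11011 over all genes. In Bcl11b-KO Treg cells a Foxp3 region was listed at 16 of the 25 complex I, 4 of the 4 complex II and 6 of the 13 complex V genes. It was listed at 41 of the 70, and at 7774 of the 11011 over all genes. Single regions were the rule, with 48 genes holding 1, 18 holding 2, and 3 (Sdhd, Cox7a2 and Atp5c1) holding 3. Ndufaf6, an assembly factor of complex I, held 4 on chromosome 4, at 11064992, 11076193, 11084715 and 11088930.

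The 28 genes without a region were mostly small subunits. In complex I they were Ndufa1, Ndufa2, Ndufa7, Ndufa8, Ndufa11, Ndufb2, Ndufb4, Ndufb4b, Ndufb4c, Ndufb10, Ndufc1, Ndufs1, Ndufs3 and Ndufs6. Elsewhere they were Ndufaf2, Ndufaf8, Uqcr10, Uqcr11, Uqcrb, Ndufa4, Cox6b2, Cox7a1, Cox8b, Cox8c, Atp5e, Atp5h, Atp5l and Atp5o. Cox7a1 and Cox8b are muscle forms of their subunits. Counting each region at 1 gene hid some promoters: the windows of Ndufa4, Ndufa7, Ndufaf2, Ndufs3 and Ndufs6 were overlapped by regions counted at the neighbours Phf14, Rps28, Ercc8, Kbtbd4 and Mrpl36. Ndufs3, a core subunit of complex I, and Ndufs6 shared their windows with regions at which Bcl11b was common with Tn cells and WT-specific against KIKO cells.

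Ends of other genes were often close by. A second protein-coding gene ended within 1 kb of the centre for 21 of 97 regions (21.6%, interval 14.6 to 30.8%), against 7.38% of all placed regions. Among regions within 1 kb of a gene end it was 21 of 60 (35%, interval 24.2 to 47.6%), against 19.2%. Which end of the second gene this was is not distinguished. Atp5j, the F6 subunit of the ATP synthase stalk, shared its 2 regions with Gabpa, which encodes the ETS factor named earlier. Ndufb5 shared its region with Mrpl47, a protein of the mitochondrial ribosome, and Sdha its promoter region with Ccdc127. A region at such a place cannot be assigned to one of the genes rather than the other.

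**Figure D2:**
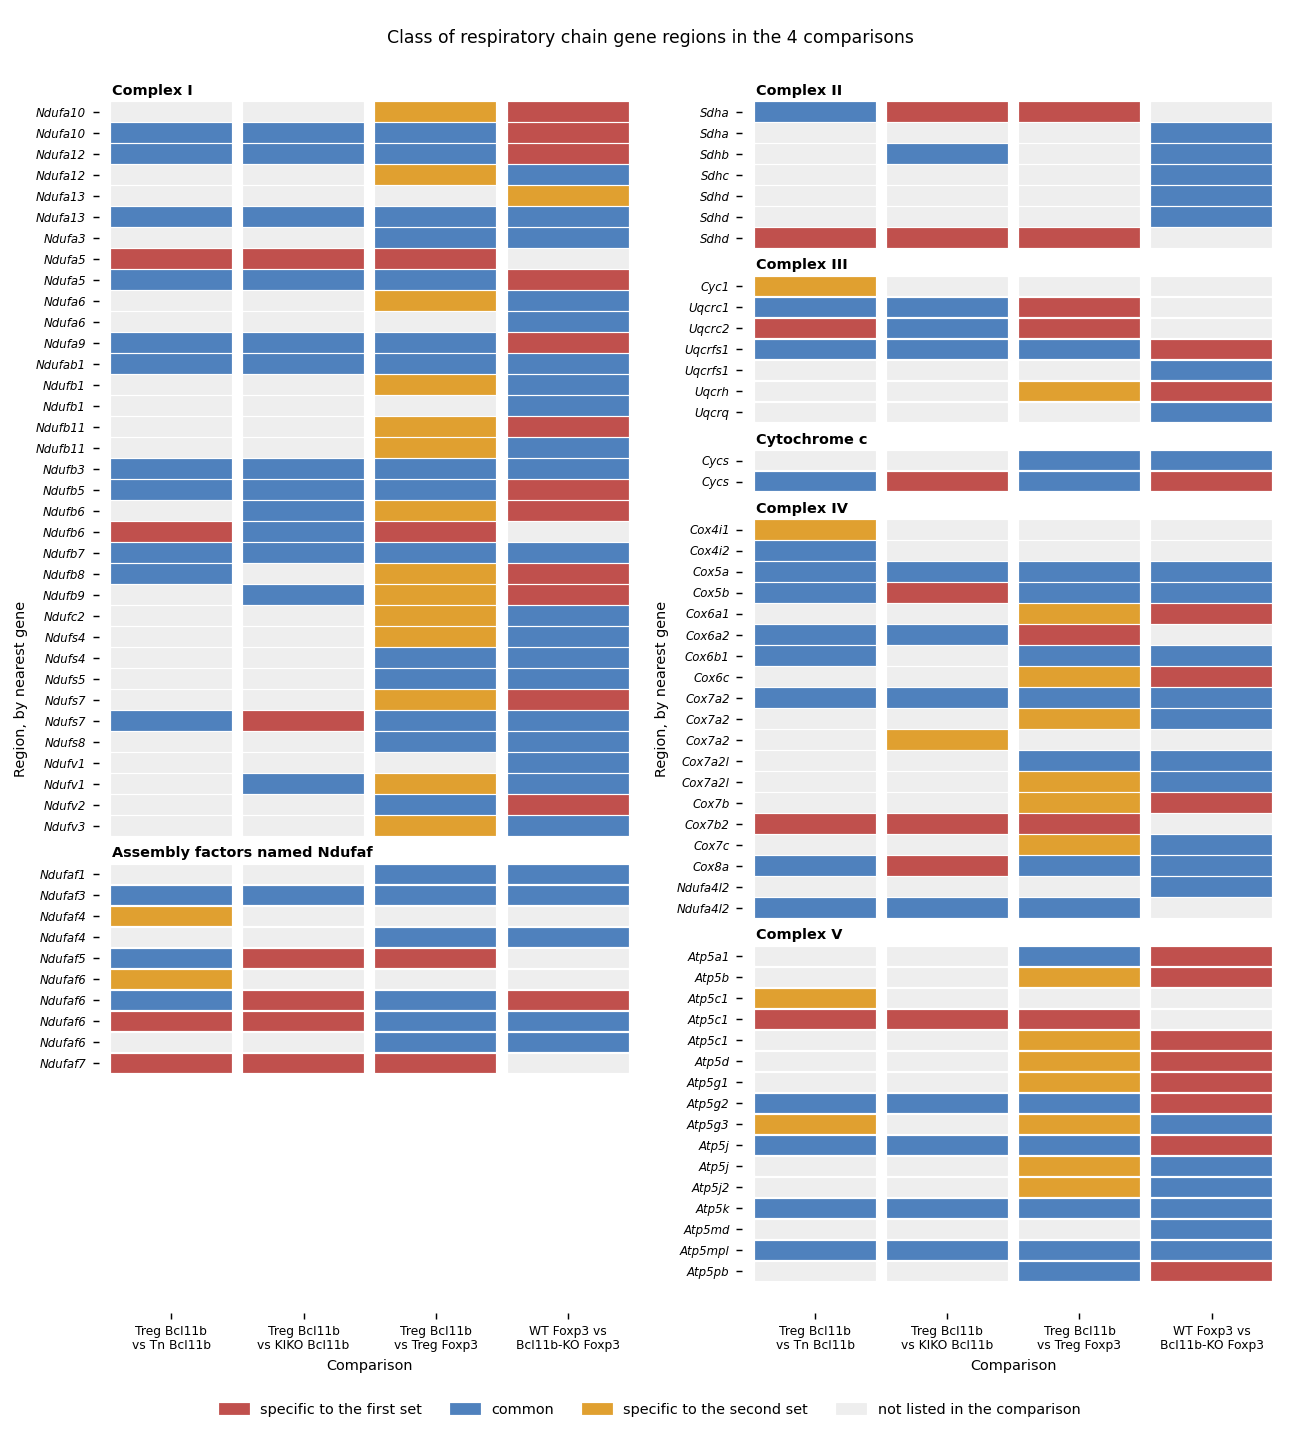
Class of the regions (rows, by nearest gene and grouped by complex; 1 of the 97 is not drawn) in the 4 comparisons (columns): red, specific to the first set; blue, common; orange, specific to the second set; pale grey, not listed. Red cells in the last column stand mainly in complex I and in complex V, with 8 in the latter. These complexes also hold 33 and 14 of the 78 WT Foxp3 regions. Orange appears in that column at 1 region of Ndufa13.

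Against KIKO cells, most Bcl11b regions at respiratory chain genes were common to both. Of 40 WT Treg Bcl11b regions, 27 were common and 13 WT-specific. The WT-specific share was 32.5% (interval 20.1 to 48.0%), and over all placed regions it was 62.4%. Near gene ends the shares were 6 of 25 (24.0%, interval 11.5 to 43.4%) and 49.4%. Farther than 1 kb from an end they were 7 of 15 (46.7%, interval 24.8 to 69.9%) and 70.3%. In each case the interval lay below the share of all regions.

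Complex I, with 16 of the 40 regions, held 14 of the 27 common and 2 of the 13 WT-specific ones. Among them was the core subunit Ndufv1 (chr19:4012570-4012834), which carries the NADH site. Others were regions at Ndufa5, Ndufa9, Ndufa10, Ndufa12, Ndufa13, Ndufab1, Ndufb3, Ndufb5, Ndufb7 and Ndufb9, and both regions at Ndufb6. In complex III 3 regions were common, at Uqcrc1 and Uqcrc2, the core proteins, and at Uqcrfs1, and none was WT-specific. Complex V had 4 common regions, at Atp5g2, Atp5j, Atp5k and Atp5mpl, and complex IV also had 4, at Cox5a, Cox6a2, Cox7a2 and Ndufa4l2. Sdhb and the assembly factor Ndufaf3 supplied the other two.

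The WT-specific regions were spread over most of the complexes. Assembly factors held 4 of the 13, at Ndufaf5 (chr2:140170788-140170985), at Ndufaf7 (chr17:78946599-78946796), a methyltransferase, and a pair at Ndufaf6. Complex IV held 3, at Cox5b (chr1:36691114-36691527), Cox8a (chr19:7217431-7217695) and Cox7b2. Complex II held 2, inside Sdha, the flavoprotein that oxidises succinate, and inside its membrane anchor Sdhd. The rest were an intragenic region of Ndufa5, the promoter region of Ndufs7 (chr10:80249173-80249520), an intragenic region of Atp5c1 (the gamma subunit that turns in the ATP synthase stalk) and the promoter region of Cycs (chr6:50566441-50566784). A single region was KIKO-specific, at Cox7a2 (chr9:79770325-79770576). That is 1 of 41 listed regions (2.44%, interval 0.432 to 12.6%), beside 1.15% of all.

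Against Tn cells, most Bcl11b regions at respiratory chain genes were common, in shares that could not be separated from those of all regions. Of 39 WT Treg Bcl11b regions 8 were Treg-specific (20.5%, interval 10.8 to 35.5%), beside 30.8% of all placed regions. Within 1 kb of a gene end it was 0 of 23, which allows a share of up to 13.0% (3 counts of the total; Wilson upper limit 14.3%), beside 10.9% of all regions there. All 8 lay farther out, where they made 8 of 16 (50%, interval 28.0 to 72.0%) beside 43.7% of all. Distance from gene ends therefore moved with this class at these genes as it did over all regions. The 8 lay at Ndufaf6 (chr4:11084715-11085120), Ndufaf7, Ndufa5 (chr6:24525242-24525439), Ndufb6 (chr4:40301103-40301300), Sdhd (chr9:50600987-50601184), Uqcrc2 (chr7:120644633-120644830), Cox7b2 (chr5:71544554-71544751) and Atp5c1 (chr2:10067166-10067363). Ndufa5 had a Treg-specific region inside the gene beside a common one at its promoter.

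Tn-specific Bcl11b regions numbered 6 of 45 listed (13.3%, interval 6.26 to 26.2%), beside 9.91% of all, so the share was not distinguishable from the background. They lay at Ndufaf4 (chr4:24890427-24890652), Ndufaf6 (chr4:11064992-11065217), Cyc1, which encodes cytochrome c1 (chr15:76342137-76342362), Cox4i1 (chr8:120668582-120668807), Atp5c1 (chr2:10053966-10054191) and Atp5g3 (chr2:73911233-73911528). The one at Atp5g3, a second gene for the c subunit, was also a Foxp3 region in WT and in Bcl11b-KO Treg cells.

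In WT Treg cells, Foxp3 regions at respiratory chain genes coincided with Bcl11b more often than Foxp3 regions in general. Bcl11b shared 38 of 66 (57.6%, interval 45.6 to 68.8%), and 33.3% over all WT Foxp3 regions. Near gene ends it shared 31 of 50 (62.0%, interval 48.2 to 74.1%) against 39.0%. Farther out it was 7 of 16 (43.8%, interval 23.1 to 66.8%) beside 28.4%, which the interval includes. Complex I held 16 of the 38 shared and 14 of the 28 Foxp3-only regions, complex IV 7 and 6, and complex V 6 and 7. Ndufaf genes held 6 shared and no Foxp3-only region, at Ndufaf1, Ndufaf3, Ndufaf4 and, with 3, Ndufaf6.

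Bcl11b without Foxp3 was listed at 11 of 49 Treg Bcl11b regions (22.4%, interval 13.0 to 35.9%), beside 34.2% of all. Within 1 kb of a gene end it was 1 of 32 (3.12%, interval 0.554 to 15.7%), beside 11.7%. This was the region at Ndufaf5, whose promoter window lay under the separate Foxp3 region counted at Esf1. Both intervals include the shares of all regions, so neither count is separated from the background. The other 10 of 17 far from ends (58.8%, interval 36.0 to 78.4%, beside 49.6%) included Uqcrc1, Uqcrc2, Sdha, Sdhd, Cox7b2 and the muscle subunit Cox6a2. All 11 had a width of exactly 198 bp, the modal width of the Treg Bcl11b set, and 94.6% of all Bcl11b-only regions had the modal width of a set, whereas the 38 shared regions had a median width of 308 bp.

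**Figure D3:**
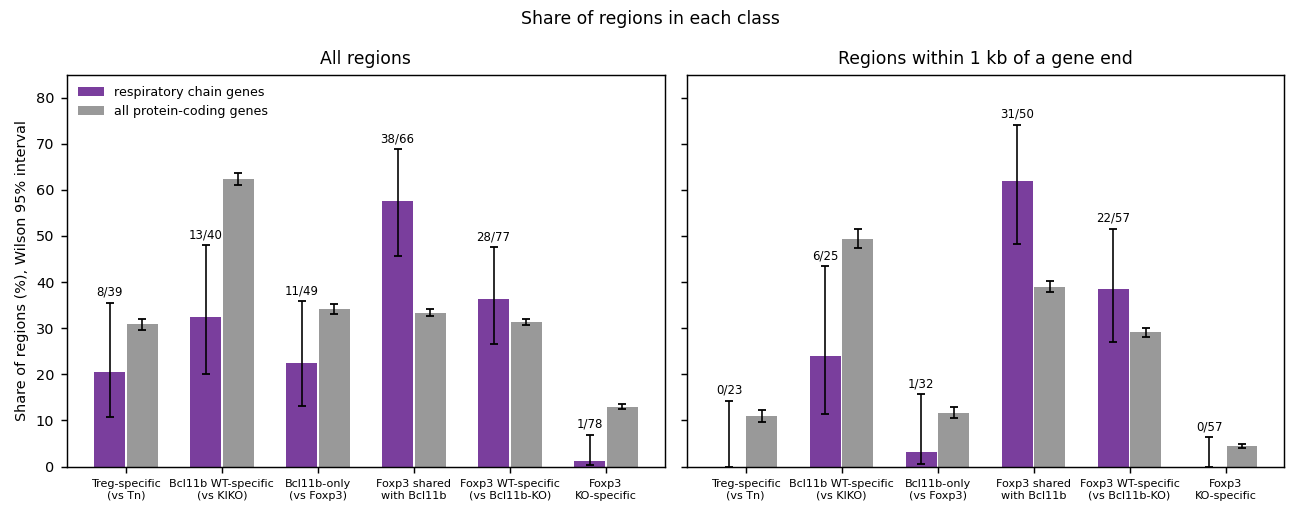
Share of regions in a class (y axis, percent, from 0, with Wilson 95% intervals) at respiratory chain genes (purple, with the counts) and over all regions placed at protein-coding genes (grey), for all regions on the left and for those within 1 kb of a gene end on the right. The purple bar for Bcl11b WT-specific against KIKO is below the grey one in both panels (32.5 and 62.4%; 24.0 and 49.4%), and the bar for Foxp3 shared with Bcl11b is above it (57.6 and 33.3%; 62.0 and 39.0%).

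Loss of Bcl11b was the other axis of the study, measured by Foxp3 binding. Of 77 WT Foxp3 regions at respiratory chain genes, 28 were WT-specific against Bcl11b-KO Treg cells and 49 common. The share of 36.4% (interval 26.5 to 47.5%) was near the 31.3% of all WT Foxp3 regions, and its interval included that value. Near gene ends it was 22 of 57 (38.6%, interval 27.1 to 51.6%) beside 29.1%, and farther out 6 of 20 (30%, interval 14.6 to 51.9%) beside 33.3%. Of the 61 genes with a WT Foxp3 region in this comparison, 34 had only common ones and 7 had some of each. The other 20 had only WT-specific ones (32.8%, interval 22.3 to 45.3%, beside 21.1% of all genes with such a region). A gene with fewer regions falls into this class more easily at the same share of regions. The 61 genes held 77 WT Foxp3 regions, and the 8925 genes of the whole series held 15255. The gene shares were not matched for this, so no excess over the background is drawn from them.

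Of the 20, 9 were subunits of complex I and 7 of complex V, which supplied 25 and 13 of the 61 genes. In complex V they included Atp5a1 (alpha) and Atp5b (beta), which form the catalytic head, and Atp5c1 (gamma) and Atp5d (delta) of its central stalk, together with the stator subunit Atp5pb and the c-subunit genes Atp5g1 and Atp5g2. The regions lay at chr10:128080632-128080851 for Atp5b, chr2:10080353-10080572 for Atp5c1, chr10:80141288-80141575 for Atp5d, chr11:96075911-96076130 for Atp5g1, chr15:102671004-102671296 for Atp5g2 and chr3:105959151-105959455 for Atp5pb. Complex V had 8 WT-specific and 6 common Foxp3 regions in all, and the common ones lay at Atp5g3, Atp5j, Atp5j2, Atp5k, Atp5md and Atp5mpl. The promoter window of Atp5md itself lay under a region counted at Pdcd11 at which Foxp3 was WT-specific. In complex I, with 13 WT-specific and 20 common, the genes included Ndufv2, Ndufa5, Ndufa9, Ndufa10, Ndufb5, Ndufb6, Ndufb8 and Ndufb9. The others were Cox6a1, Cox6c and Cox7b of complex IV and Uqcrh, the hinge protein of complex III. The region counted at Uqcrh lay 7038 bp from its start, and the Uqcrh promoter window was overlapped by a region counted at Lrrc41 at which Foxp3 was common.

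Complexes II and IV were mostly in the common class. Complex II had 5 Foxp3 regions, all common, at Sdha, Sdhb, Sdhc and, with 2, Sdhd. Complex IV had 10 common and 3 WT-specific, with common regions at Cox5a, Cox5b, Cox6b1, Cox7c, Cox8a, a pair each at Cox7a2 and at Cox7a2l, and 1 at Ndufa4l2. Assembly factors had 5 common and 1 WT-specific, at Ndufaf6. Whether the complexes differ in these shares was not tested, since the regions are few and no value per library was given.

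Foxp3 regions listed only for Bcl11b-KO cells were nearly absent from respiratory chain genes. They were 1 of 78 listed regions (1.28%, interval 0.227 to 6.91%), beside 13.0% of all. The region lay inside Ndufa13, which is also known as Grim19, at chr8:69896325-69896600. The gene's other region, at chr8:69901422-69901719, was closer to the start, with its centre 450 bp downstream of it. Near gene ends there were 0 of 57, which allows a share of up to 5.26% (Wilson upper limit 6.31%), beside 4.39% of all regions there. Farther out it was 1 of 21 (4.76%, interval 0.846 to 22.7%) beside 19.4%. Position near gene ends thus moved with this class too. Neither near the ends nor farther out could the count separate these genes from the background.

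The regions can also be followed across both knockouts, since Bcl11b in KIKO cells and Foxp3 in Bcl11b-KO cells were compared with different immunoprecipitations of WT Treg cells. Whether inputs were shared is not given in the sources used here. This split was made after the lists had been seen. Of 22 regions where Bcl11b was common with KIKO and WT Foxp3 was listed against Bcl11b-KO, Foxp3 was WT-specific at 11 (50%, interval 30.7 to 69.3%), beside 24.8% of all such regions. Near gene ends it was 10 of 19 (52.6%, interval 31.7 to 72.7%) beside 26.6%. Where Bcl11b was WT-specific against KIKO, Foxp3 was WT-specific at 2 of 6 (33.3%, interval 9.68 to 70.0%) beside 27.0%. Where the region was not listed against KIKO, it was 15 of 49 (30.6%, interval 19.5 to 44.5%) beside 32.3%. The 11 regions included those of Ndufa5, Ndufa9, Ndufa10, Ndufa12, Ndufb5, Ndufb6, Ndufb9, Uqcrfs1, Atp5g2 and Atp5j. At 9 of the 11 Bcl11b was also common with Tn and shared with Foxp3, as at the 5 promoters printed second, and at Ndufb6 and Ndufb9 it was not.

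Another 9 regions were common in all 4 comparisons (9.28% of the 97, interval 4.96 to 16.7%, beside 3.82% of all placed regions). They lay at Ndufa13 (chr8:69901422-69901719), Ndufab1 (chr7:122101786-122102089), Ndufb3 (chr1:58586287-58586625), Ndufb7 (chr8:83566554-83566930) and Ndufaf3 (chr9:108566771-108567112). The remainder were Cox5a (chr9:57521022-57521332), Cox7a2 (chr9:79759656-79759990), Atp5k (chr5:108434199-108434508) and Atp5mpl (chr12:111966901-111967200). None of the 9 lay in complex II, complex III or at Cycs, which held only 7, 7 and 2 of the 97 regions. The share of regions common throughout was not matched for nearness to gene ends. At the promoter of Cycs, Bcl11b was common with Tn and shared with Foxp3, but it was WT-specific against KIKO and so was Foxp3 against Bcl11b-KO cells, while a second region at chr6:50560770-50561094 was common to Foxp3 in both.

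The lists differed from each other at some regions. Of 43 member regions listed for WT Treg Bcl11b against Tn or KIKO, 4 were listed as Foxp3-only against Foxp3, at Ndufb6, Ndufb8, Ndufb9 and Ndufv1. Another 2, at Sdhb and Cox4i2, were not listed there. Over all regions the corresponding counts were 408 and 919 of 6734. In the other direction, 12 of the 38 regions shared with Foxp3 were not listed for WT Treg Bcl11b against Tn or KIKO, as were 1758 of 4712 over all regions. A further 12 WT Foxp3 regions of the comparison with Bcl11b-KO were not listed for Foxp3 in the comparison of the factors (1962 over all). The region of Ndufa4l2 at chr10:127512854-127513159 was shared with Foxp3 and yet not listed against Bcl11b-KO. Widths bear on the same point: 55 of the 97 regions had exactly the modal width of a set, and so did 69.5% of all placed regions. Among common regions this held for 7 of 31 with Tn, 5 of 27 with KIKO, 7 of 38 with Foxp3 and 23 of 49 with Bcl11b-KO, so common need not mean that a peak was called in both sets.

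**Figure D4:**
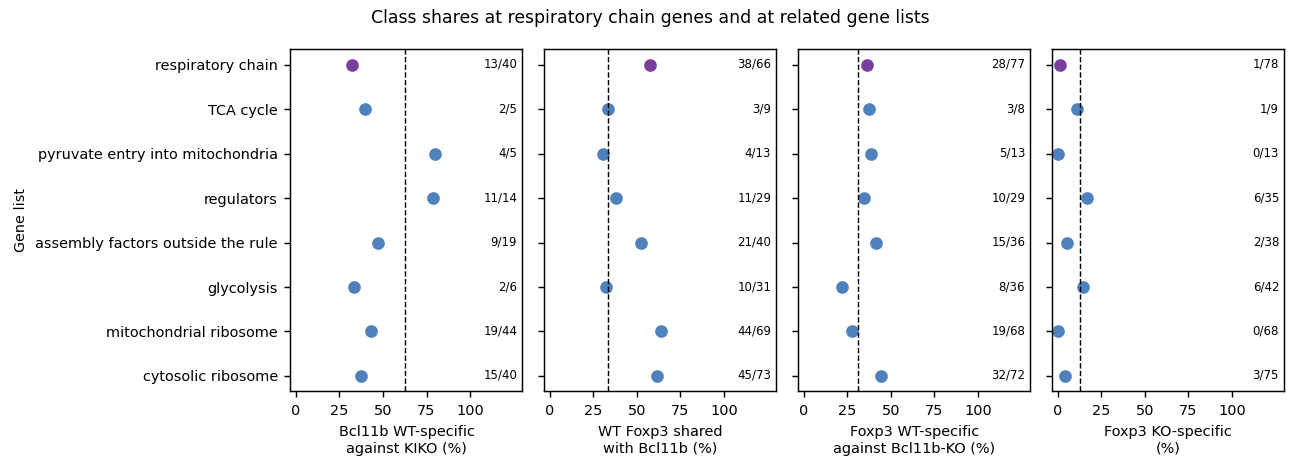
Share of regions (x axes, percent) in 4 classes at respiratory chain genes (purple) and at 7 related gene lists (blue), with the counts at the right and the share over all placed regions as a dashed line. Respiratory chain genes (13 of 40), mitochondrial ribosome genes (19 of 44) and cytosolic ribosome genes (15 of 40) lie left of the line for Bcl11b WT-specific against KIKO. The lists of regulators (11 of 14) and of pyruvate entry (4 of 5) lie right of it. No intervals are drawn.

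Other mitochondrial and housekeeping genes were set beside the respiratory chain. Genes of the mitochondrial ribosome, which translates the subunits encoded in mitochondrial DNA, had a region at 57 of 78, and Bcl11b was WT-specific against KIKO at 19 of 44 of their regions (43.2%). Cytosolic ribosome genes had a region at 66 of 87, with 15 of 40 (37.5%), after the S6 kinase genes and Rps19bp1, which share the symbol start but encode no ribosomal protein, had been left out once the list was seen (19 of 47 with them). Assembly factors outside the rule gave 9 of 19 (47.4%), and all placed regions 62.4%. No intervals were computed for the related lists. Bcl11b shared 63.8% of Foxp3 regions at mitochondrial ribosome genes and 61.6% at cytosolic ribosome genes, beside 57.6% at respiratory chain genes. Foxp3 was WT-specific against Bcl11b-KO at 27.9% (19 of 68) and 44.4% (32 of 72) in those lists, beside 31.3% of all. For Bcl11b against KIKO and for sharing with Foxp3, the 3 lists lay on the same side of the shares of all regions.

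Metabolic genes upstream of the chain also had regions often, at 10 of 13 TCA cycle genes, 10 of 13 genes for the entry of pyruvate into mitochondria and 16 of 20 glycolytic genes. Few of these were Bcl11b regions listed against KIKO, and 2 of 5, 4 of 5 and 2 of 6 in turn were WT-specific. Regulators of respiratory chain genes and mitochondrial DNA gave 11 of 14 (78.6%), and 18 of 21 had a region. Over all placed regions the WT-specific share was 62.4%, and 50.3% of all protein-coding genes had a region. These lists are small and no intervals were computed for them, so no difference from the background is drawn. Among the regulators, Nrf1 had 1 region, bound by Foxp3 alone and WT-specific against Bcl11b-KO cells. Ppargc1a, which encodes the coactivator PGC-1alpha, had 1 region that was shared by Bcl11b and Foxp3, Treg-specific against Tn and WT-specific against KIKO. Tfam, which packages mitochondrial DNA, had 2 Foxp3 regions, both common with Bcl11b-KO cells.

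Marker genes were checked by binding alone, which does not measure expression. All 5 Treg markers (Foxp3, Il2ra, Ctla4, Ikzf2 and Tnfrsf18) had regions, 24 in all, and the T cell markers Cd3e, Cd4 and Lck had 8. The region at Foxp3 was Treg-specific against Tn, WT-specific against KIKO and common to Foxp3 binding in WT and Bcl11b-KO cells. Regions at CD8 and NK cell markers lay at 4 of 6 genes, and 6 of the 6 listed against Bcl11b-KO were KO-specific, as were the 3 at the myeloid marker Itgam. Of these KO-specific regions, 1 at Klrb1c and 1 at Ccl5 were also listed for WT Foxp3 in the comparison of the factors. Their part in the counts against Bcl11b-KO was not tested, and respiratory chain genes had 1 KO-specific region.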

How the data were processed

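The data are 12 lists of regions that the authors deposited, without header lines, whose 3 columns give a chromosome, a start and an end. They hold positions and no counts, signal or p-values. The submitters' processing notes name mm10 as the build, and among tools HOMER 4.10.1 and HISAT2 2.1.0, besides SAMtools 1.3, deepTools, cutadapt 1.12, Trim Galore 0.4.2 and FastQC. Per the labels' protocols the libraries were made with a NEXTFLEX kit and sequenced on an Illumina HiSeq instrument. How a region was called common, at which threshold peaks were called and whether replicates were pooled is not given in the sources used here. Among the sample descriptions, replicate 3 of WT Treg Bcl11b names no list, and replicate 2 of WT Foxp3 omits the one shared by both factors. The depth of each library is unknown.

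Regions were taken as identical columns, which dropped 127 repeated entries of 47553. A further 25 regions that stood in 2 classes of a comparison, none at a respiratory chain gene, were left out of that comparison. Genes, their ends and promoter sequences came from RefSeq tables of GRCm38.p6. Regions were assigned to the nearest of 21900 protein-coding genes within 100 kb, and closeness to a gene end meant at most 1 kb. Genes without a promoter window have no start site here, and exons, introns and UTRs were not used. Shares have Wilson 95% intervals. No test was made, because every list stands for a group.

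The genes, the related lists, the motifs and the rule for naming were chosen with earlier results of these data known. All members were counted by complex, and those with Bcl11b regions, KO-specific regions, only WT-specific Foxp3 regions or 3 or more regions were named, except where not reported here. The related lists are the TCA cycle, pyruvate entry, regulators, assembly factors outside the rule, glycolysis, both ribosomes (the cytosolic one without S6 kinase genes and Rps19bp1, left out after seeing the data) and markers of Treg, T, CD8 and NK, B and myeloid cells. Of 3 B cell markers 1 had a region, common to Foxp3 in both genotypes. Assignment and intervals were tested on simulated data. Python 3.11.15, pandas 2.3.3, numpy 2.4.6 and matplotlib 3.10.9 were used.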

Additional observations from a re-analysis of the deposited data

How the results depend on the processing

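In all, 8 shares and counts were recomputed under other limits, windows, memberships, widths and matching rules, giving 80 values. Of these, 64 stayed within the main interval (counts of genes within 1.5 times) and 16 moved farther. The share of Foxp3 regions shared with Bcl11b, with all its alternatives, and the alternative of keeping only regions within 1 kb of a gene end were added after seeing the data. The share of Bcl11b regions that were WT-specific against KIKO stayed below that of all regions in 10 of 10 alternatives (17.4 to 46.7%), and the share of Foxp3 regions shared with Bcl11b stayed above it in 10 of 10 (43.8 to 80%). The Foxp3 share that was WT-specific against Bcl11b-KO (30 to 38.6%) was above that of all regions in 9 of 10 and below it for regions over 1 kb from gene ends. Among regions wider than 276 bp it was 33.3% (interval 20.2 to 49.7%), beside 18.7% of all such regions, which the interval excludes.

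Restricting to regions over 1 kb from a gene end left 30 genes with a region (30.6%, below the 32.3% of all genes) and gave 50% Treg-specific against Tn, 58.8% Bcl11b-only and 43.8% of Foxp3 regions shared with Bcl11b. In this setting the Treg-specific and Bcl11b-only shares exceeded those of all regions (43.7 and 49.6%), which their intervals include. For these results and for the genes with a region, the order against the whole series was thus the reverse of the main values. Restricting to regions within 1 kb gave 0% Treg-specific, 3.12% Bcl11b-only and 0% KO-specific, beside 10.9, 11.7 and 4.39% of all regions there. Keeping only regions wider than 276 bp left 35 genes with a region (35.7%, beside 22.6% of all genes). Of these regions 73.0% lay near gene ends, beside 53.8% of all such regions. Bcl11b was WT-specific against KIKO at 17.4%, beside 46.9%, and shared 80% of Foxp3 regions, beside 46.8%. The Treg-specific share was 4.35% (interval 0.772 to 21.0%), beside 7.51%. Bcl11b-only gave 0% (upper limit 12.1%), beside 3.47%, and KO-specific 0% (upper limit 9.64%), beside 5.16%. None of the Treg-specific, Bcl11b-only and KO-specific shares was separated from that of all wide regions. The share of regions near gene ends was 74.2% with a window of 2.5 kb, beside 49.6% of all regions. It was 73.2%, beside 49.4%, when only regions inside or within 1 kb of a gene were kept. The cause of these moves was not tested. Apart from the window of 2.5 kb, these settings also left fewer regions.

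No paired analysis was possible because the lists stand for groups and hold no value per replicate. Leaving out replicates was not possible for the same reason. Depth limits these results in an unknown way, since no read counts were analysed here, and shares over fewer than 50 regions have wide intervals.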
